A study of Homo sapiens with 12 samples.

Results

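The 9 genes followed here belong to the tripartite motif (TRIM) family and have known roles in antiviral defence: TRIM5, TRIM14, TRIM21, TRIM22, TRIM25, TRIM26, TRIM34, TRIM38 and TRIM56. They were found by matching these symbols to the Ensembl identifiers of the deposited count table. All 9 were found among its 60669 gene identifiers, and all 9 passed the low-count filter that left 16393 genes for testing. The RNA came from HT1080, an established human fibrosarcoma cell line, and the question was how the TRIM genes responded to interferon beta (IFNB) and whether a CRISPR interference guide changed their levels. Polyadenylated RNA of 4 groups was sequenced. LTR8B cells with IFNB had the genotype dCas9_CRISPRi_LTR8B.SP140, whose guide is directed at an LTR8B endogenous retroviral element in an intron of SP140, and received 10 U/mL IFNB for 4 h (4 libraries). LTR8B cells without IFNB had the same genotype and were untreated (4 libraries). GFP cells with IFNB carried the control genotype dCas9_CRISPRi_GFP and received the same dose for the same time (2 libraries), and GFP cells without IFNB were untreated (2 libraries). All groups, controls included, shared stable dCas9, a Cas9 that does not cut, and were grown under blasticidin and puromycin. The labels do not say whether a line was 1 clone, and nothing in them says whether replicates came from separate cultures. All p-values therefore speak only for the spread among these libraries, which may be technical.

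TRIM proteins share a RING domain, B-boxes and a coiled coil, followed in most of these members by a PRY-SPRY domain that binds the target. The RING domain gives most of them ubiquitin ligase activity, through which they either attack viral components or tune the sensor pathways that lead to interferon. Interferon beta acts through its receptor, JAK1 and TYK2 to form a complex that includes STAT2 and IRF9 and binds interferon-stimulated response elements in gene promoters. TRIM14 lacks a RING domain and works as an adaptor, so the name ubiquitin ligase does not cover it.

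The libraries held 12404270 to 28801579 counts, a depth at which a count of 0 allows up to 3 counts, or 0.104 to 0.242 CPM (counts per 1e+06 counts); such limits cover counting error only. SP140, whose intron holds the LTR8B element that the guide was directed at, was at 1.23 ± 0.2885 CPM in LTR8B cells with IFNB and 1.249 ± 0.570 CPM in LTR8B cells without, against 30.9 ± 1.56 CPM in GFP cells with IFNB and 30.3 ± 0.728 CPM in GFP cells without (SD, n = 4, 4, 2 and 2). Of the 10 mesenchymal markers, VIM averaged 3264 to 3552 CPM over the 4 groups and FN1 323.3 to 390.5 CPM, whereas COL1A1 (1.43 to 2.59 CPM), COL1A2 (0.358 to 0.807 CPM) and THY1 (0.0725 to 0.165 CPM) were low or near 0. With IFNB, 0 of the 9 mesenchymal markers tested passed the edgeR test described below as higher and 1 as lower in each line. Of all tested genes, 4.01% passed as higher and 0.482% as lower in LTR8B cells. In GFP cells these shares were 3.06% and 0.134%. The epithelial markers EPCAM and KRT19 averaged at most 0.122 CPM, although KRT8 and KRT18 were expressed. Of the leukocyte markers, PTPRC and CD14 were at or near 0, whereas LCP1 averaged 1056 CPM in LTR8B cells with IFNB and 1033 CPM without, against 814 CPM in GFP cells with IFNB and 863.7 CPM without. LAPTM5 and CSF1R were lower with the LTR8B guide: LAPTM5 was at 2.12 to 4.52 CPM over the LTR8B libraries of both treatments, against 5.71 to 9.20 CPM over the GFP libraries, and CSF1R was at 4.44 to 5.94 CPM over the LTR8B libraries, against 7.26 to 9.28 CPM over the GFP libraries. The summed CPM of the 8 leukocyte markers was 1001 to 1116 in LTR8B cells with IFNB and 938 to 1121 without, against 801.5 to 861.3 in GFP cells with IFNB and 865.5 to 895.5 without. CPM throughout is scaled by the TMM method of edgeR.

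The promoters of these genes were read first, because 5 of the 8 that could be examined carry letters that resemble an interferon-stimulated response element. Binding was not measured. RefSeq windows of 250 bases before to 50 after the transcript start (build GRCh38.p14) were matched by symbol for 8 of the 9 members, with 2 windows for TRIM34; TRIM22 was not matched. An ISRE-like motif, for interferon-stimulated response element, was searched on both strands as the letters GAAA, then 2 bases of any kind, then GAAA. A match on the other strand reads TTTC, 2 bases of any kind, TTTC. In the stretches below the matched letters are in capitals, and each is written 5′ to 3′ on the strand of its gene.
TRIM5 (chr11:5685075-5685174, minus strand, bases 100 to 1 before the start): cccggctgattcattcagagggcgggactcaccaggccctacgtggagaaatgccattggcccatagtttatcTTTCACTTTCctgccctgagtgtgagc
TRIM14 (chr9:98119223-98119322, minus strand, bases 100 to 1 before the start): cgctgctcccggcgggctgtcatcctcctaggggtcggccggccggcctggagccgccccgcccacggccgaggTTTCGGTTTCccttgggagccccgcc
TRIM34 (chr11:5624851-5624950, plus strand, bases 150 to 51 before the first of its starts): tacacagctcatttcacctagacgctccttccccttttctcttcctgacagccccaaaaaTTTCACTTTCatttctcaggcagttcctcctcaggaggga
TRIM26 (chr6:30213537-30213636, minus strand, bases 230 to 131 before the start): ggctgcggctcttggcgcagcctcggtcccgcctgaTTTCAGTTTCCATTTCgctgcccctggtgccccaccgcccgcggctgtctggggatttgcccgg
TRIM21 (chr11:4393663-4393692, minus strand, bases 11 to 40 of the transcript): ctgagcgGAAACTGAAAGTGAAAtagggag
These stretches show that TRIM5, TRIM14, TRIM34 and TRIM26 hold the match on the strand opposite to the gene, upstream of the start. TRIM5 and TRIM14 have it close to the start, at -27 to -18 and -26 to -17. TRIM34 has it at -90 to -81. TRIM26 has 2 overlapping matches at -194 to -185 and -188 to -179. TRIM21 has 2 overlapping matches on its own strand just inside the transcript, at 18 to 27 and 24 to 33.

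**Figure D1:**
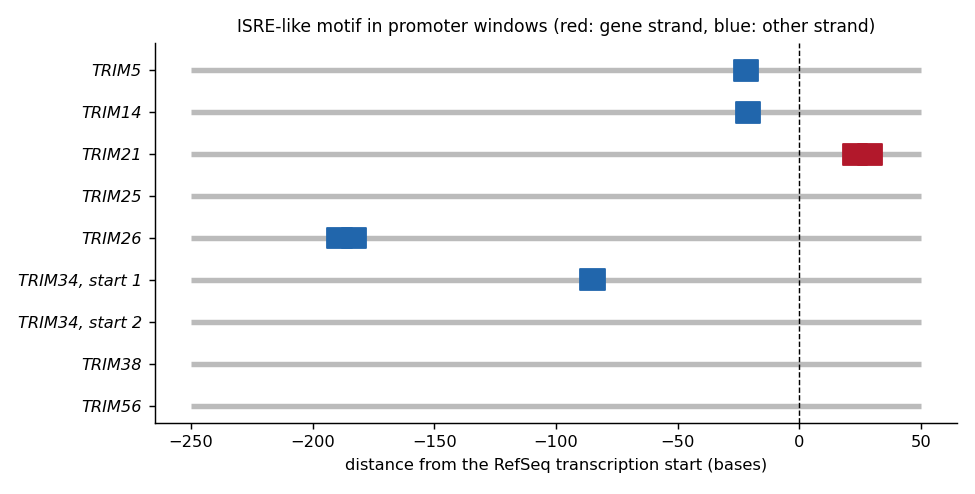
Positions of ISRE-like matches in the RefSeq promoter windows of the members, with the distance from the transcript start in bases on the horizontal axis and 1 line per window. Red marks stand for matches on the gene's strand and blue marks for those on the other strand, and the dashed line is the start; TRIM5, TRIM14, TRIM21, TRIM26 and 1 of the TRIM34 windows hold at least 1, and those of TRIM25, TRIM38 and TRIM56 hold none.

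The share of members with a match, 5 of 8 (62.5%), stood beside 1255 of 35116 promoter windows of all genes (3.57%) and 466 of the 11407 tested genes with a window (4.09%). Among 347 genes with a window that were higher with IFNB in both lines, 90 held a match (25.9%). No match was found in the windows of TRIM25, TRIM38 and TRIM56, which says only that these letters are not in those windows. A gamma-activated (GAS-like) sequence, TTCNNNGAA, which is its own reverse complement, was in 0 of 8 members and in 2689 of the 35116 windows (7.66%). It was in 997 of the 11407 tested genes with a window (8.74%) and in 57 of the 347 higher with IFNB (16.4%). Of 48 other TRIM genes with a window, 10 held it (20.8%). With 8 genes, a count of 0 says little. A match is a description of letters and not a bound site.

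The 9 genes were higher with IFNB in LTR8B cells and in GFP cells. Summed over the 9, their level averaged 1617 ± 45.2 CPM in LTR8B cells with IFNB and 498 ± 25.7 CPM in LTR8B cells without (SD, n = 4 each). It averaged 1680 ± 44.9 CPM in GFP cells with IFNB and 476.9 ± 8.74 CPM in GFP cells without (SD, n = 2 each). In edgeR's quasi-likelihood test with Benjamini-Hochberg adjustment over all tested genes, 9 of 9 passed a threshold of 0.05 as higher in LTR8B cells, where 4.01% of all tested genes did, and 9 of 9 in GFP cells, where 3.06% did. For each of the 9, no library with IFNB overlapped one without; non-overlap in that direction was met by 6.16% of tested genes in LTR8B cells and by 22.6% in GFP cells, where 2 libraries face 2. The median log2 fold change of the members was 1.79 in LTR8B cells and 1.89 in GFP cells, beside -0.015 in LTR8B cells and -0.0059 in GFP cells over all tested genes. Of the marker lists, the 4 neural markers summed to levels that did not overlap between treatments, 179 to 212 CPM in LTR8B cells with IFNB and 143 to 171 CPM without, and 161.5 to 188 CPM in GFP cells with IFNB and 152 to 161.4 CPM without. Within this list, MAP2 averaged 20.2 CPM in LTR8B cells with IFNB and 9.82 CPM without, and 22.1 CPM in GFP cells with IFNB and 9.11 CPM without. TUBB3 was at 130 and 106 CPM in LTR8B cells with and without IFNB and at 122 and 114 CPM in GFP cells, where its ranges overlapped, while NCAM1 was at 42.4 and 41.7 CPM in LTR8B cells and at 30.8 and 33.9 CPM in GFP cells. Of the 3 tested, 1 passed as higher in each line. The marker SOX10 was at or near 0 in every group, and the part of this list in the result was not tested. In RNA from bulk culture, a change in RNA per cell and a change in how many cells respond cannot be told apart.

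**Figure D2:**
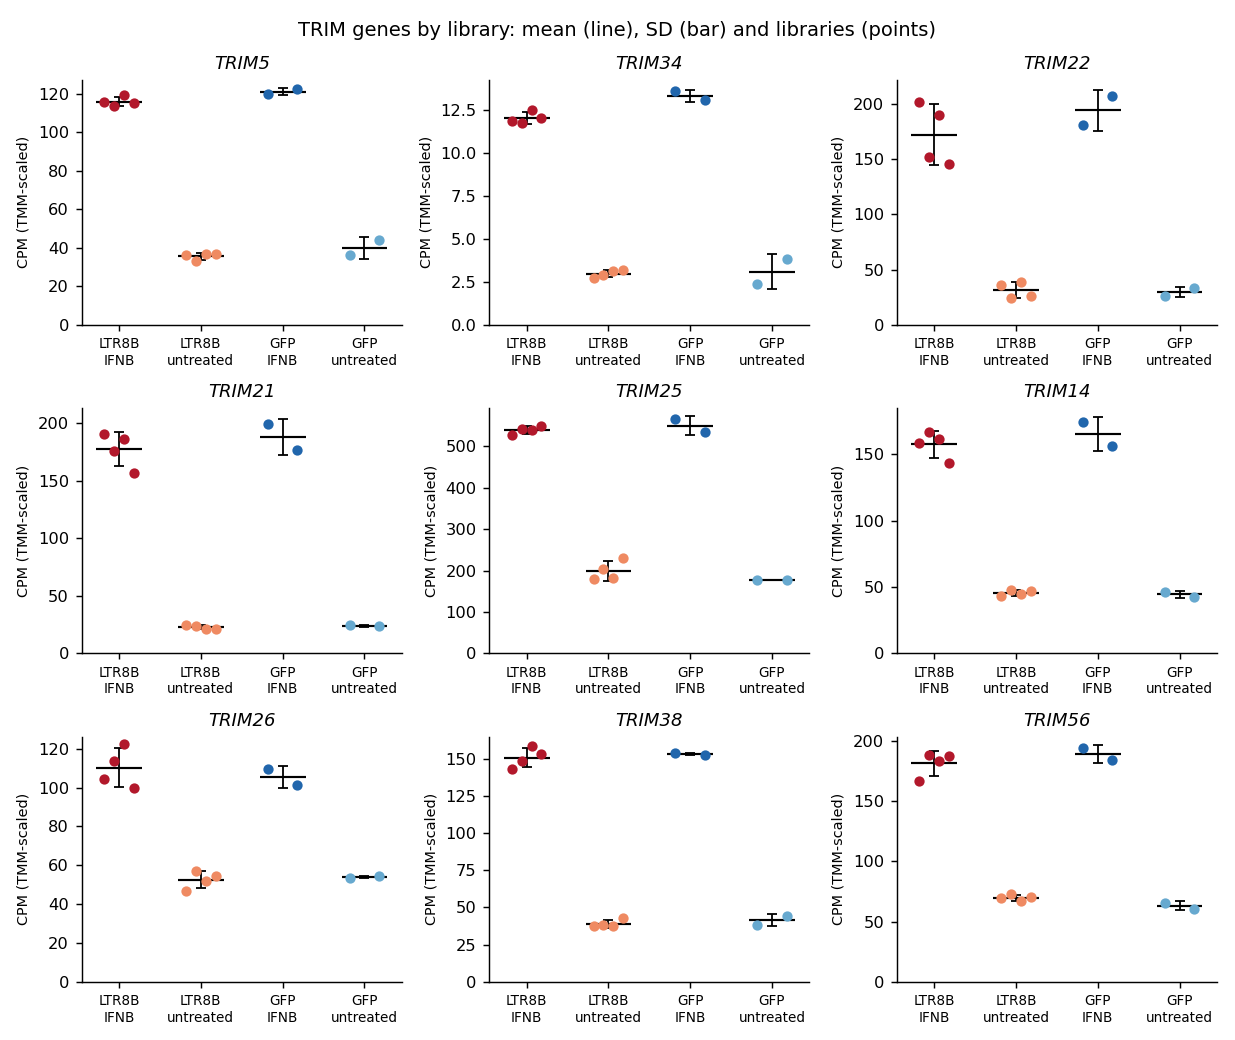
Level of each of the 9 TRIM genes in every library, in TMM-scaled CPM on a linear axis from 0, with 1 point per library, a line at the group mean and a bar of 1 SD; groups run from LTR8B with IFNB to GFP untreated. In every panel the IFNB libraries lie above the untreated libraries of both lines; levels are not corrected for length and run from 2.38 CPM for TRIM34 to 566 CPM for TRIM25.

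TRIM5 and TRIM34 act on incoming retroviruses, and they are neighbours on chromosome 11 together with TRIM22. TRIM5 (ENSG00000132256.19, chr11:5663557-5938619, minus strand, hg38) binds the assembled capsid of retroviruses and disrupts it. Its level was 116, 113.5, 119 and 115 CPM in LTR8B cells with IFNB, against 36.2, 33.1, 36.7 and 36.8 CPM in LTR8B cells without. In GFP cells it was 119.7 and 122 CPM with IFNB, against 36.1 and 44.1 CPM without. The treated libraries of both lines lay within 113.5 to 122.3 CPM, far above every untreated library. The log2 fold change was 1.70 in LTR8B cells (SE 0.065, edgeR adjusted p = 1.36e-12) and 1.60 in GFP cells (SE 0.09, adjusted p = 6.40e-10). TRIM5 shares 382 of its 4804 exonic bases with AC104389.4 on the same strand, where reads cannot be told apart. AC104389.4 had 1389 counts over all libraries, against 18431 for TRIM5.

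TRIM34 (ENSG00000258659.6, chr11:5619764-5644398, plus strand) is a close relative of TRIM5 that works with it against the capsids of some lentiviruses. It was the least abundant member, with 11.9, 11.8, 12.5 and 12.03 CPM in LTR8B cells with IFNB, against 2.72, 2.88, 3.11 and 3.19 CPM without. GFP cells had 13.6 and 13.1 CPM with IFNB, against 2.38 and 3.82 CPM without, the last pair resting on 63 and 81 counts. The 2 treatments were well apart even at this depth, with a log2 fold change of 2.01 in LTR8B cells (SE 0.12, edgeR adjusted p = 1.77e-09) and 2.12 in GFP cells (SE 0.17, adjusted p = 1.23e-07). Of its 2690 exonic bases, 2233 are also exons of the readthrough gene TRIM6-TRIM34, which had 0 counts in all libraries, so reads of the readthrough transcript may stand under TRIM34.

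TRIM22 (ENSG00000132274.16, chr11:5689689-5737089, plus strand) lies inside the span of TRIM5 on the opposite strand and restrains transcription of human immunodeficiency virus. It was at 202, 152, 189.7 and 145.5 CPM in LTR8B cells with IFNB, against 36.0, 24.3, 38.7 and 25.7 CPM without. With the GFP guide it was at 181 and 207 CPM with IFNB, against 26.5 and 32.9 CPM without. In LTR8B cells its replicates were further apart, relative to their mean, than those of the other members: replicates 1 and 3 stood above replicates 2 and 4 with IFNB and also without. The log2 fold change of 2.455 in LTR8B cells (SE 0.17, edgeR adjusted p = 3.53e-06) and 2.71 in GFP cells (SE 0.25, adjusted p = 4.39e-05) had the widest errors of the 9. The fit was not paired, so a replicate difference shared by both treatments counted as spread in these errors. Whether counting used strand is not stated in the sources used here; TRIM22 and TRIM5 share no exonic bases, while 642 of the 6020 exonic bases of TRIM22 lie in OR56B1, which had 0 counts.

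TRIM21 (ENSG00000132109.10, chr11:4384897-4393696, minus strand) is a cytosolic receptor for antibodies that marks antibody-coated virus for degradation. It had the largest fold change of the 9 in each line. Its level was 190.3, 176, 186 and 157 CPM in LTR8B cells with IFNB, against 24.4, 23.4, 21.4 and 21.5 CPM without. The GFP libraries had 199 and 177 CPM with IFNB, against 24.3 and 23.3 CPM without. Untreated libraries of both lines were within 21.4 to 24.4 CPM, and treated ones spread from 157 to 199 CPM. The increase was 7.825-fold in LTR8B cells (95% interval 7.01 to 8.73, edgeR adjusted p = 3.40e-15) and 7.90-fold in GFP cells (95% interval 6.77 to 9.21, adjusted p = 7.64e-13). It shares no exonic bases with another gene of the annotation.

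TRIM25, TRIM14, TRIM26, TRIM38 and TRIM56 act mainly in the pathways that sense viral nucleic acid. TRIM25 (ENSG00000121060.18, chr17:56836387-56914080, minus strand) attaches ubiquitin in activation of the RNA sensor RIG-I and is a cofactor of the zinc finger antiviral protein ZAP. It was at 527, 542, 540.2 and 550.0 CPM in LTR8B cells with IFNB, against 179, 204.5, 181 and 229.5 CPM without. In GFP cells it was at 566 and 534 CPM with IFNB, against 177.5 and 177 CPM without. Treated libraries were close together, whereas the untreated LTR8B libraries spread more widely than the untreated GFP pair. The log2 fold change was 1.44 in LTR8B cells (SE 0.069, edgeR adjusted p = 3.50e-11) and 1.63 in GFP cells (SE 0.10, adjusted p = 1.50e-09). Of the exonic bases of TRIM25, 538 of 9501 also lie in AC015912.1 on the opposite strand, which had 30 counts over all libraries. It also shares 132 bases with C17orf67 on the same strand (740 counts), 80 with DGKE on the opposite strand (5948 counts) and 86 with MIR3614 on the same strand (0 counts).

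TRIM14 (ENSG00000106785.15, chr9:98069275-98119212, minus strand) is an adaptor at the mitochondrial protein MAVS, downstream of RIG-I. Its level was 158, 167, 161.5 and 143 CPM in LTR8B cells with IFNB, against 43.1, 48.0, 44.3 and 47.3 CPM without. GFP cells had 174 and 156 CPM with IFNB, against 46.3 and 42.6 CPM without. The lowest treated library, at 143 CPM, was well above the highest untreated one at 48.0 CPM. The log2 fold change was 1.79 in LTR8B cells (SE 0.065, edgeR adjusted p = 6.81e-13) and 1.89 in GFP cells (SE 0.092, adjusted p = 7.55e-11). TRIM14 shares 422 of its 5469 exonic bases with NANS on the opposite strand, where reads of the 2 genes can be told apart only if counting used strand, which is not stated in the sources used here. NANS had 13640 counts over all libraries, against 24389 for TRIM14.

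TRIM38 (ENSG00000112343.11, chr6:25962802-25991226, plus strand) restrains inflammatory signalling downstream of Toll-like receptors. It was at 143, 149, 159 and 153 CPM in LTR8B cells with IFNB, against 37.25, 38.2, 37.3 and 42.7 CPM without. GFP cells had 154 and 153 CPM with IFNB, against 38.5 and 44.3 CPM without. Treated levels of the 2 lines lay within 143 to 159 CPM and did not overlap the untreated ones. The log2 fold change was 1.96 in LTR8B cells (SE 0.064, edgeR adjusted p = 1.50e-13) and 1.89 in GFP cells (SE 0.09, adjusted p = 5.38e-11). TRIM38 shares 273 of its 9413 exonic bases with U91328.2 on the opposite strand, which had 3 counts over all libraries.

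TRIM56 (ENSG00000169871.13, chr7:101085439-101097967, plus strand) acts on the DNA sensing proteins cGAS and STING and on RNA viruses. Its level was 166.5, 188, 183 and 188 CPM in LTR8B cells with IFNB, against 69.8, 72.6, 66.7 and 70.7 CPM without. With the GFP guide it was at 195 and 184 CPM with IFNB, against 65.65 and 60.5 CPM without. Treated and untreated libraries did not overlap, and the increase was smaller than for most members. The log2 fold change was 1.376 in LTR8B cells (SE 0.057, edgeR adjusted p = 4.38e-12) and 1.585 in GFP cells (SE 0.081, adjusted p = 1.54e-10).

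TRIM26 (ENSG00000234127.9, chr6:30184455-30213427, minus strand), which has been reported to act on the signalling between sensors and IRF3, had the smallest increase. It was at 105, 114, 122.5 and 99.8 CPM in LTR8B cells with IFNB, against 46.7, 57.3, 52.0 and 54.3 CPM without. The GFP libraries had 109 and 101 CPM with IFNB, against 53.6 and 54.4 CPM without. Even here, the lowest treated library, at 99.8 CPM, was above the highest untreated one, at 57.3 CPM. The increase was 2.095-fold in LTR8B cells (95% interval 1.88 to 2.33, edgeR adjusted p = 8.04e-09) and 1.95-fold in GFP cells (95% interval 1.68 to 2.27, adjusted p = 4.59e-06).

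**Figure D3:**
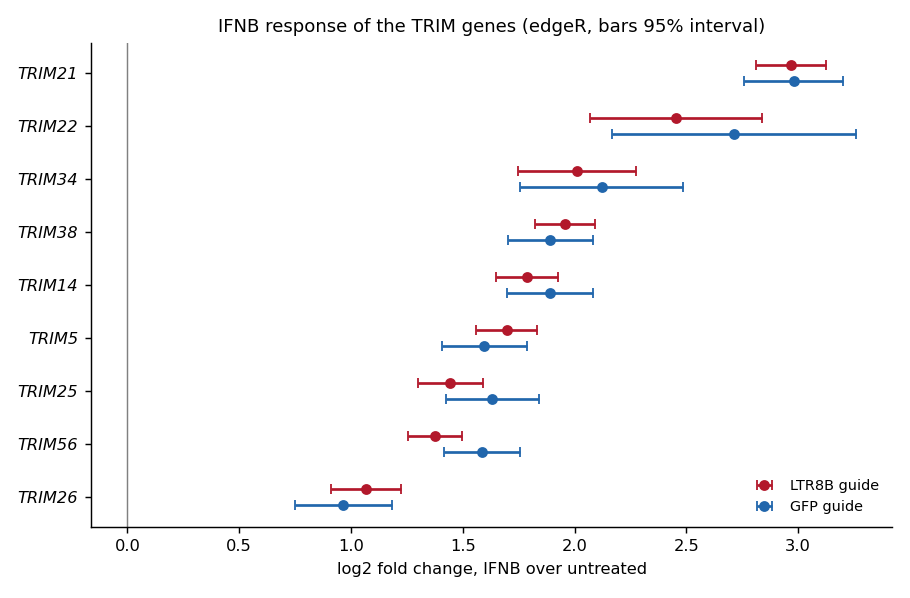
Log2 fold change of each TRIM gene with IFNB over untreated cells, with its 95% interval, in LTR8B cells and in GFP cells. TRIM21 is at the top with 2.97 and 2.98, TRIM26 at the bottom with 1.07 and 0.97, and the interval of TRIM26 lies below that of every other member in its line.

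In the order of log2 fold changes, TRIM21, TRIM22, TRIM34, TRIM38 and TRIM14 came first in both lines. The 95% intervals of neighbours in that order overlapped in both lines, except those of TRIM56 and TRIM26. TRIM21 exceeded TRIM22, next in order, by 0.51 on the log2 scale in LTR8B cells (SE of the difference 0.19) and by 0.27 in GFP cells (SE 0.27). TRIM56 exceeded TRIM26 by 0.31 in LTR8B cells (SE 0.093) and by 0.62 in GFP cells (SE 0.13). Ranked by log2 fold change among the genes that passed as higher, TRIM21 was number 78 of 658 in LTR8B cells and number 80 of 502 in GFP cells, and TRIM26 was number 236 in LTR8B cells and number 253 in GFP cells.

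Levels can be compared between members only per length, taken here as the mean CPM per kilobase of the annotated principal transcript. In LTR8B cells with IFNB, TRIM25 was at 94.1 ± 1.64 and TRIM21 at 92.2 ± 7.76 CPM per kilobase (SD, n = 4), and their ranges overlapped. In GFP cells with IFNB, TRIM21 was at 97.7 ± 8.20 and TRIM25 at 95.9 ± 3.92 CPM per kilobase (SD, n = 2), again with overlap. TRIM22 followed in each line, and then TRIM5, TRIM14, TRIM26, TRIM56, TRIM38 and TRIM34. Among these neighbours, the ranges of TRIM14 and TRIM26 and of TRIM56 and TRIM38 overlapped in LTR8B cells with IFNB, and none overlapped in GFP cells with IFNB. At the other end, TRIM34 was at 4.835 ± 0.133 CPM per kilobase in LTR8B cells with IFNB and 5.35 ± 0.145 in GFP cells with IFNB.

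Untreated cells had another order. TRIM25 led alone, at 34.6 ± 4.14 CPM per kilobase in untreated LTR8B cells and 30.9 ± 0.0381 in untreated GFP cells, followed by TRIM26 at 15.1 ± 1.29 in untreated LTR8B cells and 15.5 ± 0.157 in untreated GFP cells. TRIM5, TRIM21, TRIM22 and TRIM14 lay within 10.3 to 11.9 CPM per kilobase as means in untreated LTR8B cells, where neighbours in the order had overlapping ranges. In untreated GFP cells the ranges of TRIM5 and TRIM21 overlapped, as did those of TRIM14 and TRIM22. TRIM21, at 11.8 ± 0.767 CPM per kilobase in untreated LTR8B cells and 12.4 ± 0.379 in untreated GFP cells, was 4th of the 9 there, against 1st or 2nd with IFNB. TRIM56, TRIM38 and TRIM34 were the lowest per kilobase in each group. TRIM56 and TRIM38 have the longest principal transcripts of the 9, 10.95 and 9.413 kilobases, and which transcripts were present was not measured. Without division by length, TRIM56 was below only TRIM25 in untreated cells, at 69.9 CPM in LTR8B cells and 63.1 CPM in GFP cells.

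By the root mean square difference of centred log2(CPM + 1) over the 12 libraries, searched among 12989 genes, the nearest genes of each member were these. TRIM5 was closest to IFI16 (0.0815) and SLFN5 (0.0831), and TRIM34 to TRIM5 (0.0996) and IFI16 (0.112). The added 1 CPM shrinks changes of genes at low levels, such as TRIM34 at 2.38 to 3.82 CPM in untreated libraries. By the edgeR fit, TRIM34 changed by 2.01 on the log2 scale in LTR8B cells and 2.12 in GFP cells. TRIM5 changed by 1.70 in LTR8B cells and 1.60 in GFP cells. The part of the added 1 CPM in this likeness was not tested. TRIM25 was closest to ADAR (0.0898) and to TRIM56 (0.0909), and TRIM56 to ADAR (0.0801) and N4BP1 (0.0815). TRIM26 was closest to CMTR1 (0.0770) and BCL2L13 (0.0948), TRIM38 to NMI (0.0931) and CACNA1I (0.108), and TRIM14 to OR52K3P (0.103). TRIM21 was closest to CXCL11 (0.109) and DTX3L (0.113). TRIM22 had no gene as close, its nearest being HERC5 (0.160) and EIF2AK2 (0.173). The libraries are shared by all genes, and the measure is a description.

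The next comparison asked whether the LTR8B guide changed the levels of the TRIM genes. None of the 9 passed the threshold in untreated cells, where 0.36% of all tested genes did, or with IFNB, where 0.354% did. None passed for the guide effect averaged over both treatments, where 2.14% did. At an unadjusted p under 0.05 edgeR also gave 0 of 9 in each of these 3 comparisons, where 11.2%, 9.48% and 15.8% of all genes fell below that value, and DESeq2 and limma-voom gave 0 of 9 as well. Within each treatment the log2 fold changes of the LTR8B guide over the GFP guide lay between -0.17 (TRIM22 with IFNB) and 0.16 (TRIM25 untreated).

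In untreated cells TRIM25 was at 198 ± 23.7 CPM with the LTR8B guide and 177 ± 0.2185 CPM with the GFP guide, and TRIM56 was at 69.9 ± 2.44 CPM in LTR8B cells and 63.1 ± 3.62 CPM in GFP cells, each ± SD over 4 LTR8B and 2 GFP libraries. Both genes were higher in every LTR8B library than in either GFP library, which 10.2% of all tested genes also were. Their log2 fold changes were 0.16 (95% interval -0.016 to 0.34, edgeR adjusted p = 0.484) and 0.15 (95% interval -0.002 to 0.30, adjusted p = 0.450). TRIM5 had the largest negative value, -0.16 (95% interval -0.33 to 0.0044, adjusted p = 0.456). These 3 values moved with single libraries: that of TRIM5 was -0.016 without untreated GFP replicate 2 and -0.30 without untreated GFP replicate 1, that of TRIM25 was 0.087 without untreated LTR8B replicate 4, and that of TRIM56 was 0.088 without untreated GFP replicate 2. The other 6 lay between -0.09 for TRIM38 and 0.083 for TRIM22.

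With IFNB, 8 of the 9 log2 fold changes of the LTR8B guide over the GFP guide were below 0, as were 51.1% of all tested genes and 59.4% of the genes higher with IFNB in both lines. TRIM22 had the most negative value, -0.17 (95% interval -0.60 to 0.25, edgeR adjusted p = 0.845), and TRIM34 followed with -0.15 (95% interval -0.43 to 0.13, adjusted p = 0.783). TRIM26 alone was positive, at 0.062 (95% interval -0.12 to 0.25). TRIM34 and TRIM5 were lower in every LTR8B library than in either GFP library, which 9.43% of all tested genes were. As a percent change from the GFP level, the interval ran from -16.3% to 6.185% for TRIM21 and from -34.2% to 19.3% for TRIM22. Differences inside those intervals remain compatible with these libraries. The summed leukocyte markers given above were higher in every LTR8B library than in every GFP library of either treatment, a sum carried by LCP1, while LAPTM5 and CSF1R were lower in every LTR8B library than in every GFP library. Lower levels without overlap within 1 treatment were met by 9.44% of all tested genes in untreated cells and by 9.43% with IFNB. Of the 8 leukocyte markers 5 were tested. For the guide effect averaged over treatments 1 of these passed as higher and 2 as lower in edgeR. Of all tested genes, 1.15% passed as higher and 0.994% as lower. Of the 9 mesenchymal markers tested, 1 passed as higher and 1 as lower. Of 3 tested markers each, 1 neural marker passed as higher, 1 endothelial marker as lower and 0 epithelial markers. The part of these marker lists in the guide comparison was not tested.

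**Figure D4:**
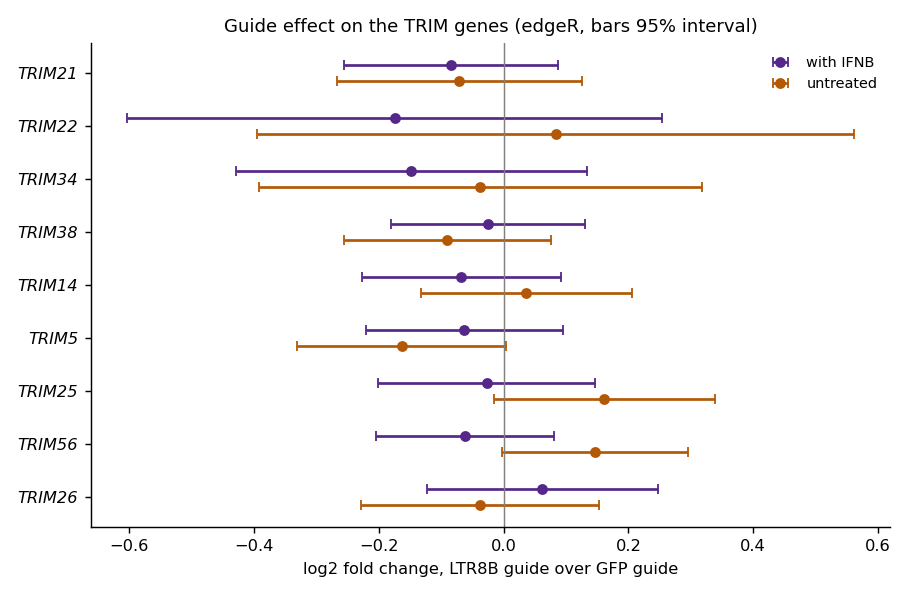
Log2 fold change of the LTR8B guide over the GFP guide for each TRIM gene, with its 95% interval, with IFNB and in untreated cells. All intervals include 0, and those of TRIM22 and TRIM34 are the widest.

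Whether the IFNB response itself differed between the lines was tested as the interaction of guide and IFNB. None of the 9 passed the threshold in edgeR, DESeq2 or limma-voom, and 0% of all tested genes did in edgeR. At an unadjusted p under 0.05, 1 of 9 did in each of the 3 tools, against 2.98% of all tested genes in edgeR, and that gene was TRIM56. Its response was 2.60-fold in LTR8B cells and 3.001-fold in GFP cells, a difference of -0.21 on the log2 scale (SE 0.10, adjusted p = 0.996 by edgeR). TRIM22 had a difference of -0.26 (95% interval -0.90 to 0.39) and TRIM25 of -0.19 (95% interval -0.44 to 0.059). The differences of the other 6 lay between -0.11 for TRIM34 and 0.10 for TRIM26.

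Of 63 other TRIM family genes, 43 were tested and 9 had a count of 0 in all libraries. In LTR8B cells 4 of the 43 passed as higher with IFNB and 0 as lower, beside 4.01% of all tested genes as higher. In GFP cells 2 of the 43 passed as higher and 0 as lower, beside 3.06% of all tested genes, and a share of this size is near the background. Their median log2 fold change was -0.080 in LTR8B cells and -0.0081 in GFP cells. The 2 genes that passed in both lines were TRIM69 and PML, and their responses were of the size of those of the 9 members.

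TRIM69, a relative that has been reported to act against vesicular stomatitis virus, was at 67.5 ± 2.62 CPM in LTR8B cells with IFNB, against 9.55 ± 1.54 CPM without (SD, n = 4 each). In GFP cells it was at 68.4 ± 2.44 CPM with IFNB, against 10.2 ± 0.366 CPM without (SD, n = 2 each). Its log2 fold change was 2.82 in LTR8B cells (SE 0.091, edgeR adjusted p = 1.21e-13) and 2.75 in GFP cells (SE 0.13, adjusted p = 3.66e-11). PML, also called TRIM19, forms the nuclear bodies that bear its name, and was at 213 ± 14.9 CPM in LTR8B cells with IFNB, against 51.6 ± 5.57 CPM without, and 223 ± 17.3 CPM in GFP cells with IFNB, against 51.75 ± 4.83 CPM without. TRIM69 holds an ISRE-like match at -62 to -53, as 4 of 48 other TRIM genes with a window do (8.33%). The other 2 genes that passed in LTR8B cells were chosen after their values were seen. TRIM44, a member without a RING domain, changed by 0.18 on the log2 scale (edgeR adjusted p = 0.0417), and MEFV, which encodes the inflammasome protein pyrin, by 1.81 (adjusted p = 0.0464) at a mean of 0.550 CPM. These last 2 calls were not stable. The call of TRIM44 was kept only when GFP replicate 2 with IFNB or untreated LTR8B replicate 3 was the library left out, and over all 12 omissions its adjusted p ran from 0.0477 to 0.198. The call of MEFV was kept only without untreated LTR8B replicate 1, and its adjusted p ran from 0.0184 to 0.178.

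**Figure D5:**
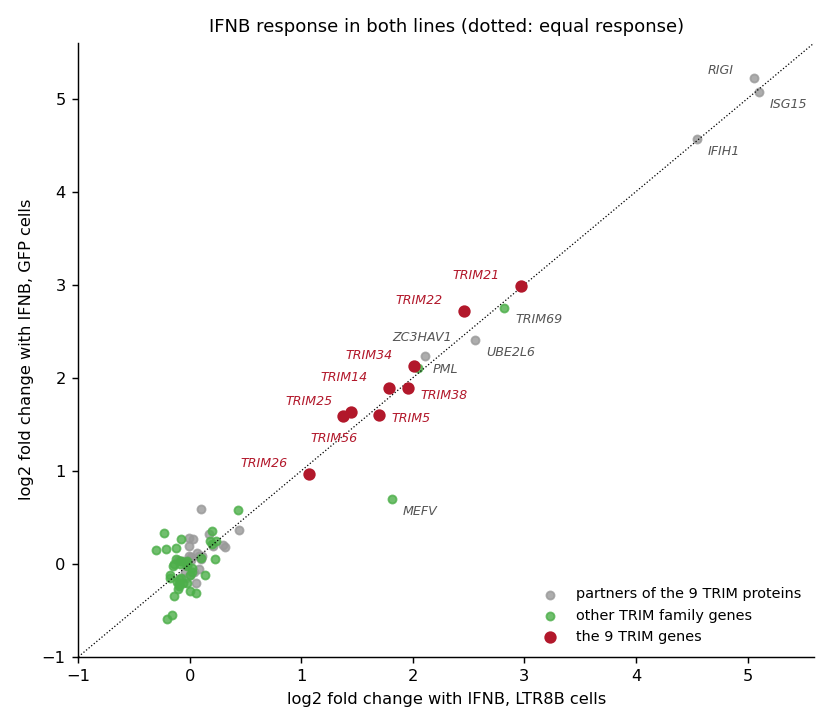
Log2 fold change with IFNB in LTR8B cells (horizontal axis) and in GFP cells (vertical axis) for the 9 TRIM genes, the other tested TRIM family genes and tested partners of the 9 proteins; the dotted line marks an equal response. The 9 TRIM genes lie between 0.97 and 2.98, with TRIM69 and PML beside them and RIGI, ISG15 and IFIH1 above 4.5, while most other TRIM genes and partners lie near 0.

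The partners with which the 9 proteins work responded unevenly. Of 31 such genes, 30 were tested, the exception being CGAS, which encodes the DNA sensor cGAS and was at 0 to 0.471 CPM. In LTR8B cells 7 of the 30 passed as higher and 0 as lower, and in GFP cells 5 as higher and 0 as lower, beside 4.01% of all tested genes as higher in LTR8B cells and 3.06% in GFP cells. Their median log2 fold change was 0.071 in LTR8B cells and 0.099 in GFP cells. The sensors RIGI (RIG-I) and IFIH1 (MDA5) had log2 fold changes of 5.06 and 4.545 in LTR8B cells and 5.22 and 4.57 in GFP cells, and the ubiquitin-like modifier ISG15 had 5.10 in LTR8B cells and 5.07 in GFP cells. These values were above those of every member. On the same scale UBE2L6, the conjugating enzyme for ISG15, changed by 2.56 in LTR8B cells and 2.40 in GFP cells, and ZC3HAV1, which encodes ZAP, by 2.11 in LTR8B cells and 2.235 in GFP cells, close to TRIM22 and TRIM34.

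STING1, the adaptor of DNA sensing, passed in LTR8B cells at 0.44 (edgeR adjusted p = 7.50e-04) and was at 0.36 in GFP cells (adjusted p = 0.0719). USP15, a deubiquitinase that acts on TRIM25, passed in LTR8B cells at 0.21 (edgeR adjusted p = 0.0404). With 1 library left out its adjusted p ran from 0.0242 to 0.140, and the call was kept only without GFP replicate 2 with IFNB or without untreated LTR8B replicate 1. MAVS, to which TRIM14 binds, was at -0.11 in LTR8B cells and 0.038 in GFP cells and did not pass. PPIA, the capsid-binding cyclophilin A, was at 0.04 in LTR8B cells and -0.09 in GFP cells and did not pass. The ubiquitin-conjugating enzymes UBE2N and UBE2W, with which TRIM5 and TRIM21 build chains, did not pass either, at 0.10 and 0.025 in LTR8B cells and 0.05 and 0.27 in GFP cells.

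Of 9 genes that carry the interferon signal, 8 were tested, the exception being IRF7 at 0 to 0.0335 CPM. In LTR8B cells 5 passed as higher, beside 4.01% of all tested genes, and in GFP cells 4, beside 3.06%. In either line 0 passed as lower. IRF9 and STAT2 of the interferon-activated complex changed by 4.55 (IRF9) and 2.28 (STAT2) on the log2 scale in LTR8B cells and by 4.86 (IRF9) and 2.31 (STAT2) in GFP cells. The transcription factor IRF1 changed by 1.60 in LTR8B cells and 1.56 in GFP cells, within the range of the members. The receptor chain IFNAR2 passed in LTR8B cells at 0.47 (edgeR adjusted p = 0.00182) and was at 0.27 in GFP cells (adjusted p = 0.411). The kinases JAK1 and TYK2 were at 0.062 and -0.068 in LTR8B cells and at 0.0083 and -0.11 in GFP cells, without passing.

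In the guide comparisons, 1 of the 43 tested family genes and 1 of the 30 tested partners passed, each for the effect averaged over treatments, where 2.14% of all tested genes did; such shares are near that background. TRIM52, a family member with a RING domain and no PRY-SPRY domain, had a log2 fold change of 0.35 with the LTR8B guide over the GFP guide (SE 0.09, edgeR adjusted p = 0.0498). STING1 was at -0.30 (SE 0.062, adjusted p = 0.0189). It was lower in every LTR8B library than in either GFP library in each treatment, which 9.44% of all tested genes were in untreated cells and 9.43% with IFNB. The call of TRIM52 was kept only when untreated LTR8B replicate 2 or LTR8B replicate 4 with IFNB was the library left out (adjusted p from 0.0263 to 0.207 over the 12 omissions). The call of STING1 was lost without untreated GFP replicate 2 (adjusted p = 0.197 by edgeR), without GFP replicate 1 with IFNB (0.0776) and without GFP replicate 2 with IFNB (0.0582). Both values kept their direction in every alternative.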

How the data were processed

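The authors deposited whole-number counts per gene for 12 libraries, all of which were mapped to a group by the labels. Per the submitters' processing notes, Salmon 0.13.1, DESeq2 1.38.3 and hg38 were used; the sources used here state neither their roles nor the annotation nor strand settings. The deposited normalized table was not used. In R 4.3.3, edgeR 4.0.16 kept 16393 genes by filterByExpr (minimum count 10, minimum total 15), scaled by TMM, and fitted 1 robust quasi-likelihood model with 1 mean per group and no covariate. Benjamini-Hochberg adjustment covered all tested genes at 0.05, and intervals are 95%. Libraries of a group were checked for duplicates by chi-square, and none were found. Alternatives were DESeq2 1.42.0, limma 3.58.1 voom, other scalings and filters, a replicate block and leaving out each library. The code was tested on simulated counts. Positions come from GENCODE release 29, and promoters from RefSeq on GRCh38.p14. Libraries may differ in adapters (single or dual index), which the labels do not assign to libraries, so that was not tested.

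Members and gene lists were chosen with earlier results of these data known. Named were the 9 members and SP140 in every comparison; up to 6 genes per list that passed with IFNB, ordered by the larger adjusted p of both lines; list genes past the threshold in a guide comparison; and the 2 genes nearest to each member among those with a mean of at least 1 CPM. List genes named as not passing were chosen for their known roles after their values were seen. Values of a few genes that this rule names are not reported here.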

Additional observations from a re-analysis of the deposited data

Results flagged for a closer look

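The level of TRIM5 in untreated LTR8B cells had 1 library apart from the others. Replicate 2 was at 33.06 CPM, below the other 3 libraries at 36.2, 36.7 and 36.8 CPM, and its gap to the nearest library was 0.833 of the range of the group, against Dixon's critical value of 0.829 for 4 samples. This was 1 of 18 groups of 4 libraries checked, and chance flags about 1 group in 20.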

How the results depend on the processing

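The counts of members past the threshold were 9 and 9 for the IFNB response in LTR8B and GFP cells and 0 for the guide effects and the interaction in every alternative tried: DESeq2, limma-voom, other scalings, other filters, the replicate block and leaving out each library in turn. Log2 fold changes of the IFNB response kept their direction and call for all 9. Whether replicate numbers pair the libraries is not settled. Correlations of same-numbered deviations were 0.164, 0.125, 0.0375 and 0.157 in LTR8B cells and 0.0969 in GFP cells. Those of other numbers ran from -0.122 to 0.0525 in LTR8B cells and were -0.0969 in GFP cells. Deviations of 2 libraries from their mean are equal and opposite, so the GFP value only mirrors 0.0969. Deviations of 4 libraries sum to 0, so the other-number values in LTR8B cells are not independent of the same-numbered ones. Untreated LTR8B replicate 3 had 0.0397 with replicate 4 of its line, hardly above its 0.0375 with replicate 3. The check used asked every pair to exceed 0.1, which was not met, so the main fit was not paired. For guide effects the replicate block matched numbers across the 2 lines, and replicates 3 and 4 had no GFP library. Same-numbered libraries of different lines correlated at -0.179 to -0.0259. Guide effects under this block therefore rest on a match that these correlations do not show. With the replicate block the counts were again 9, 9 and 0. Of the values that passed no test, 4 changed sign: TRIM34 in untreated cells was at 0.015 with limma-voom, TRIM14 averaged over treatments at 0.0087 and TRIM26 at -0.0041 with the replicate block, and the interaction of TRIM21 at 0.0079 without the low-count filter. The cause was not tested. Leaving out 1 library moved guide effects with no call across 0. In untreated cells TRIM14 ran from -0.023 to 0.097, TRIM22 from -0.071 to 0.24, TRIM26 from -0.080 to 0.020, TRIM34 from -0.36 to 0.32 and TRIM38 from -0.19 to 0.010. With IFNB, TRIM14 ran from -0.14 to 0.018, TRIM21 from -0.17 to 0.0065, TRIM25 from -0.066 to 0.018 and TRIM38 from -0.050 to 0.0022. Averaged, TRIM14 ran from -0.054 to 0.028, TRIM22 from -0.12 to 0.036, TRIM26 from -0.014 to 0.043 and TRIM34 from -0.25 to 0.089. In the interaction TRIM5 ran from -0.042 to 0.24, TRIM21 from -0.093 to 0.075, TRIM34 from -0.46 to 0.21 and TRIM38 from -0.031 to 0.17. Directions of these genes between guides are not settled by these libraries. Of the named genes of other lists, TRIM44, MEFV, USP15, TRIM52 and STING1 (guide effect) lost their call under some alternatives, with total-count scaling giving adjusted p of 0.166, 0.062, 0.122 and 0.0676 for the first 4, and the replicate block giving 0.132 for TRIM52 and 0.102 for STING1; the others kept it in every alternative. The GFP groups hold 2 libraries each, which limits the precision of every guide effect, and TRIM34, with 63 and 81 counts in untreated GFP cells, is the member most limited by depth.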
